A study of Mus musculus with 14 samples.

Results

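Dissociation of CA1 tissue was compared with direct homogenisation in 6 RNA-seq libraries from the mouse hippocampus, 3 of dissociated CA1 and 3 of control CA1, out of 14 libraries in the series. The members were taken by their labels alone, which name the subregion, the treatment and a replicate number. All tissue was of strain C57BL/6, and the authors' sample table lists 1 mouse for all 14 libraries, so the replicates are tissue samples of 1 animal and p-values measure only the spread between them. Dissociated tissue was held for 75 min at room temperature in artificial cerebrospinal fluid (aCSF) that contained pronase (1 mg/ml), a blend of bacterial proteases, and was then spun down and drawn through a pipette tip in aCSF with 1% FBS before its RNA was isolated. Control tissue went directly into the same RNA isolation kit. CA3 and dentate gyrus (DG) contributed 2 dissociated and 2 control libraries each, which enter the model below only to share the estimate of the spread and to serve as the comparison for the CA1 effect. The authors' sample table gives the genotype as wild type, and no age is stated in the labels.

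CA1 is the hippocampal field whose pyramidal neurons receive the Schaffer collaterals of CA3 and send the output of the hippocampus to the subiculum and cortex. Its tissue also holds astrocytes, oligodendrocytes that wrap axons in myelin, microglia (the resident macrophages of the brain), interneurons and vessels. Protease digestion and trituration free cell bodies from tissue and shear off axons and dendrites, and microglia are known to react to handling of this kind by transcribing cytokine and immediate early genes. In bulk tissue, fewer cells of a type and less RNA per cell cannot be told apart.

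The libraries differed widely in depth. The dissociated libraries (replicates 1, 2 and 3) held 4782767, 135065 and 300812 estimated counts, against 2311086, 6646655 and 2277596 in the control libraries. With no count for a gene, up to 3 counts remain possible. On the scale of CPM (counts scaled to a common library total) this limit is 0.685, 20.5 and 9.9 in the dissociated libraries and 1.34, 0.444 and 1.34 in the control libraries. Thus a gene at 0 in dissociated replicate 2 may still have been present at a level that every control library would resolve, and such limits cover counting error only. The mean difference in log2 depth was -2.50 (two-sided exact permutation test, p = 0.3, where 3 against 3 cannot go below 0.1), and replicate 1 was deeper than 2 of the 3 controls. A count was present for 65.0%, 45.2% and 46.3% of the 22485 genes of the table in the dissociated libraries, against 61.1%, 68.6% and 65.7% in the control libraries.

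The library labelled CA1 dissociated replicate 3 went against its subregion label. The summed level of 10 genes that mark CA1 pyramidal neurons was 2585, 1757 and 168 CPM in dissociated replicates 1, 2 and 3, against 2998, 2636 and 3193 CPM in the control libraries. The 168 CPM rested on 51 counts (95% exact Poisson interval 125 to 221 CPM, counting error only), so depth was not the limit on this value. The library was the lowest of the 6 for 9 of the 10 markers, and the tenth, Dcn, was at 0 in 5 of the 6 libraries. Wfs1, which encodes the endoplasmic reticulum protein wolframin and lies at chr5:36966104-36989205 (GRCm38, minus strand), had 533, 287 and 13.2 CPM in the dissociated libraries, against 891, 540 and 959 CPM in the controls. Fibcd1 had 595, 499 and 6.6 CPM in dissociated tissue, against 498, 537 and 587 CPM in controls. Gpr161 and Lefty1 were at 0 in this library.

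Most markers of CA3 pyramidal neurons stood the other way in the same library, which was the highest of the 6 for 7 of the 11. The 11 CA3 markers summed to 647, 513 and 2455 CPM in dissociated replicates 1, 2 and 3, against 728, 661 and 724 CPM in controls. Spock1, a secreted proteoglycan, had 60.7, 88.9 and 538 CPM in dissociated tissue, against 42.5, 46.2 and 40.3 CPM in controls. Grik4, a kainate receptor subunit concentrated in CA3, had 25.4, 13.7 and 168 CPM in dissociated tissue, against 5.81, 27.7 and 10.3 CPM in controls. Prkcd was at 0 in this library. Iyd and Coch were at 0 too, but averaged only 1.875 and 1.25 CPM in CA3 controls, under this library's limit of 9.9 CPM. Ociad2, another marker of the list, had 167, 130 and 62.7 CPM in dissociated tissue, against 171, 194 and 185 CPM in controls. This library was the lowest for Ociad2. Some of the high markers were also present in DG: in DG controls Grik4 averaged 85.9 CPM, Bok 112 and Cpne4 114, beside 73.9, 75.9 and 75.7 CPM in CA3 controls. Spock1 averaged 189 CPM in DG controls and 281 CPM in CA3 controls. These are means of unlike libraries. The mean log2(CPM + 10) of the tested CA3 markers was 7.131 and 5.298 in DG control replicates 2 and 3. In CA3 control replicates 1 and 4 it was 5.756 and 7.255. The 14 DG markers summed to 217, 308 and 284 CPM in the dissociated libraries, against 298, 262 and 339 CPM in the controls, and thus overlapped, and the 8 CA2 markers summed to 372, 253 and 95.7 CPM in dissociated tissue, against 290, 365 and 329 CPM in controls.

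Across 7682 genes, log2(CPM + 10) of the library labelled dissociated replicate 3 correlated with the other 2 CA1 dissociated libraries at r = 0.687 and 0.772 and with the CA1 controls at 0.737 to 0.755. With the CA3 dissociated libraries it correlated at 0.796 to 0.801 and with the CA3 controls at 0.773 to 0.801. With the DG dissociated libraries r was 0.57 to 0.629 and with the DG controls 0.698 to 0.805, so its highest r was with a DG control. These correlations are across genes of libraries of unequal depth and are given as a description. Dissociated replicate 2, the shallower library, correlated at 0.75 to 0.778 with the CA1 controls and at 0.768 to 0.781 with the CA3 controls. The library keeps its label in all that follows. The medians of gene lists, and the fold changes of the genes described in full, are also given without it.

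**Figure D1:**
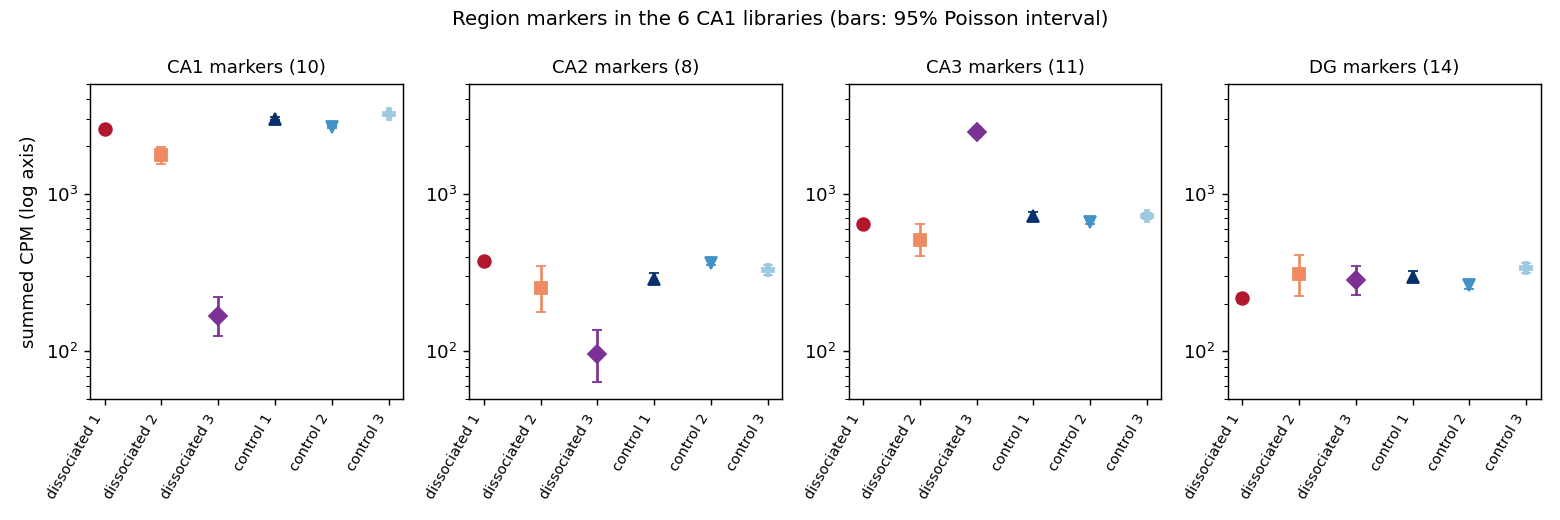
Summed CPM (log axis) of subregion markers in each of the 6 CA1 libraries, dissociated to the left of control; bars are 95% Poisson intervals of the counts. The library labelled dissociated 3 has 168 CPM of CA1 markers and 2455 CPM of CA3 markers, while the other 5 libraries lie between 1757 and 3193 CPM and between 513 and 728 CPM.

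Genes of microglia and of myelin led the comparison of dissociated with control CA1 tissue. Of 13063 genes tested, 25 were called higher in dissociated tissue (0.191%) and 0 were called lower (edgeR quasi-likelihood test, Benjamini-Hochberg adjusted p under 0.05). At an unadjusted p under 0.05, 787 genes were higher (6.02%) and 677 lower (5.18%), and DESeq2 called 178 higher (1.48%) and 28 lower (0.233%) of the 12031 genes it gave an adjusted p. The 25 genes comprised 8 of the microglia list, 7 of the oligodendrocyte list, 3 of the cytokine and NF-kappaB list and 7 in none of these 3 lists. The log2 fold changes of the 25 were positive in each of the 16 alternative analyses in which they were tested. Their calls were less stable: without the library labelled dissociated replicate 3, 1 gene stayed called higher, without dissociated replicate 1 there were 70 calls higher and 41 lower, and without dissociated replicate 2, control replicate 2 or control replicate 3 there were 0 in either direction.

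The promoters of 3 of the called genes are printed first, since they carry letters bound by factors of the NF-kappaB, AP-1 and PU.1 families. NF-kappaB and AP-1 are induced by injury and cytokines, and PU.1 is the lineage factor of macrophages and microglia. RefSeq windows of 250 bases before to 50 after the start (GRCm38.p6) existed for 15 of the 25 called genes. They were searched on both strands for the degenerate NF-kappaB consensus, TGANTCA (AP-1) and GAGGAAG (PU.1), and 4.51%, 7.81% and 13.6% of all 32851 windows hold them. No 2 matches overlapped in the windows printed. Capitals mark the matches, and each line is 5′ to 3′ on the gene's strand.
Nfkbia, chr12:55492598-55492897, minus strand, NF-kappaB match in capitals: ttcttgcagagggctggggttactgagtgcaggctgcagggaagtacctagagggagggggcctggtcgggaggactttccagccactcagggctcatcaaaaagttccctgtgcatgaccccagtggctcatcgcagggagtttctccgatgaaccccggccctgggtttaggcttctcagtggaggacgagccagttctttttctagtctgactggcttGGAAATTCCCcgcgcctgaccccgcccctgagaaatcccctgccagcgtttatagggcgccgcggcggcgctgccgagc
Il1a, chr2:129309923-129310222, minus strand, PU.1 then AP-1 matches in capitals: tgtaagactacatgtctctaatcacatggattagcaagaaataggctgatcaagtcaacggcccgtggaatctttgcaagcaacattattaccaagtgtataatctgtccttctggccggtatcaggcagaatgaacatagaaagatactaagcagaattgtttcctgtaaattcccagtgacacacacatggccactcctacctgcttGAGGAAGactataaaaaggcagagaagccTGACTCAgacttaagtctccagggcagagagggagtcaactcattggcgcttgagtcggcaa
Ctss, chr3:95526536-95526835, plus strand, PU.1 match in capitals: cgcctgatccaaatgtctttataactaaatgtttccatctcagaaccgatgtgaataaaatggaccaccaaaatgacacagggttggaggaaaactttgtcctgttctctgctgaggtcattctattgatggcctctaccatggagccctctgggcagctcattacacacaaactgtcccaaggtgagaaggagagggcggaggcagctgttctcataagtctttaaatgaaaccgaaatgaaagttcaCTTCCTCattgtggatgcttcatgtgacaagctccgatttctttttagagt
Among the 15 called genes with a window, 2 held the NF-kappaB letters (Nfkbia and Mal), 2 the AP-1 letters (Il1a and Tmem88b) and 4 the PU.1 letters (Ctss, Il1a, Laptm5 and Mag). The matches thus also fell in genes of myelin (Mal and Mag), and a match describes the sequence only.

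8 microglial genes rose in dissociated CA1 tissue. All 24 tested members of the microglia list had a positive log2 fold change. Of these, 8 were called higher (0.191% of all genes) and 0 lower. In 21 the 3 dissociated libraries all lay above the 3 controls, where 7.16% of all genes did so. The median log2 fold change of the list was 2.19, beside -0.06 for all genes tested, and it was 2.28 without the library labelled dissociated replicate 3 and 2.01 with dissociated replicate 1 alone against the controls. Selplg, the P-selectin ligand and a homeostatic microglial gene (chr5:113818536-113832644, minus strand), had 97.5, 95.7 and 155 CPM in dissociated tissue, against 16.6, 18.1 and 13.4 CPM in controls. The groups did not overlap, and its log2 fold change was 2.84 ± 0.43 (SE, edgeR adjusted p = 0.0135, n = 3 each) and 2.58 without replicate 3.

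Genes of complement and of the lysosome followed in this list. Ctss, the lysosomal protease cathepsin S, had 146, 260 and 251 CPM in dissociated tissue, against 50.1, 39.5 and 27.8 CPM in controls. C1qb, a chain of the complement starter C1q, had 143, 164 and 129 CPM in dissociated tissue, against 44.3, 25.8 and 27.3 CPM in controls. C1qa, another chain, had 125, 205 and 92.4 CPM in dissociated tissue, against 43.4, 28.7 and 17.9 CPM in controls. In each of these genes the lowest dissociated library stood above the highest control, and log2 fold changes ran from 2.16 (C1qb) to 2.45 (Ctss). Without replicate 3 they were 2.30 (Ctss), 2.23 (C1qb) and 2.39 (C1qa).

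Csf1r, the receptor for the survival factor CSF1, had 291, 404 and 297 CPM in dissociated tissue, against 117, 61.0 and 66.7 CPM in controls (log2 fold change 2.01 ± 0.35, edgeR adjusted p = 0.0268, and 2.07 without replicate 3). Mpeg1, a pore-forming protein of macrophages, had 79.7, 109 and 95.7 CPM in dissociated tissue, against 21.0, 16.6 and 19.3 CPM in controls, and Laptm5, a lysosomal membrane protein of blood-lineage cells, had 146, 294 and 165 CPM, against 65.3, 36.0 and 29.5 CPM. Without replicate 3 the log2 fold change was 2.26 in both. Homeostatic markers that were not called were of a like size. Cx3cr1, the fractalkine receptor, had 146, 226 and 135 CPM in dissociated tissue, against 59.0, 35.1 and 33.1 CPM in controls (log2 fold change 1.96 ± 0.41, edgeR adjusted p = 0.053, and 2.08 without replicate 3). P2ry12, the ADP receptor of resting microglia, had 85.4, 123 and 79.2 CPM in dissociated tissue, against 51.4, 24.3 and 16.1 CPM in controls (1.61 ± 0.47, edgeR adjusted p = 0.202, and 1.71 without replicate 3). The microglia score, the mean log2(CPM + 10) of the list, stood 1.50, 2.11 and 1.30 above the control mean in dissociated replicates 1, 2 and 3.

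7 genes of myelin and oligodendrocytes also rose, with values that differed more between the dissociated libraries. All 24 tested members of the oligodendrocyte list had a positive log2 fold change, 7 were called higher (0.191% of all genes) and 0 lower, and in 17 the 3 dissociated libraries all lay above the controls (7.16% of all genes). The list's median was 2.34, beside -0.06 for all genes, but 1.56 without the library labelled dissociated replicate 3 and 0.98 with dissociated replicate 1 alone.

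Mag, the myelin-associated glycoprotein, had 47.7, 239 and 360 CPM in dissociated tissue, against 14.8, 16.1 and 40.7 CPM in controls (log2 fold change 3.12 ± 0.59, edgeR adjusted p = 0.0396, and 2.34 without replicate 3). Mobp, a basic protein of compact myelin, had 167, 479 and 825 CPM in dissociated tissue, against 92.6, 63.8 and 111 CPM in controls. Cnp, a phosphodiesterase of non-compact myelin, had 124, 308 and 380 CPM in dissociated tissue, against 63.1, 45.3 and 51.9 CPM in controls. In each, replicate 1 was the lowest dissociated library and the one labelled replicate 3 the highest, and without replicate 3 the log2 fold changes of Mobp and Cnp were 1.78 and 1.91. Trf, the iron carrier transferrin (chr9:103204001-103230444), had 190, 438 and 611 CPM in dissociated tissue, against 72.9, 62.3 and 68.5 CPM in controls (2.58 ± 0.39, edgeR adjusted p = 0.0135, and 2.14 without replicate 3). Mal and Cldn11, membrane proteins of myelin, were called with log2 fold changes of 3.00 and 2.93, and 2.06 and 2.41 without replicate 3. Mbp, the myelin basic protein gene, was not called, with 540, 1019 and 1294 CPM in dissociated tissue, against 260, 250 and 300 CPM in controls (1.81 ± 0.43, edgeR adjusted p = 0.107, and 1.51 without replicate 3).

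The oligodendrocyte score stood 0.62, 1.60 and 2.45 above the control mean in dissociated replicates 1, 2 and 3, so the order of the libraries was not that of the microglia score. The library with the highest oligodendrocyte score was the one with CA1 markers at 168 CPM and CA3 markers at 2455 CPM. From replicate 1 to replicate 2, where this score also rose, CA1 markers fell from 2585 to 1757 CPM. CA3 markers did not rise with the score there, at 647 and 513 CPM. Control tissue of CA3 had oligodendrocyte scores of 6.58 and 6.41 and that of DG 6.69 and 5.81, above the 5.11, 5.05 and 5.21 of the CA1 controls. The part of subregion in the oligodendrocyte result was not tested, and the values without the library are given above.

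**Figure D2:**
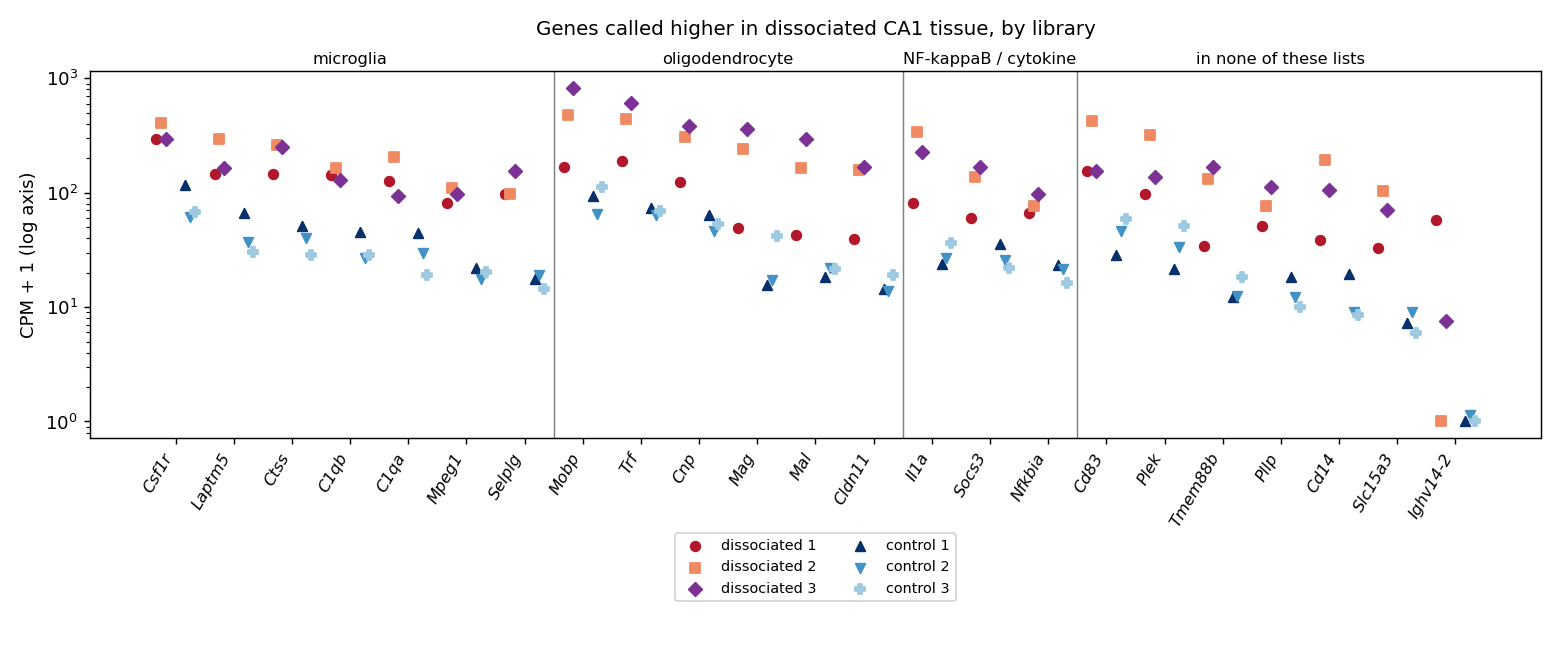
CPM + 1 (log axis) of 23 of the 25 genes called higher, by library, with the dissociated libraries left of the controls for each gene, grouped by gene list. The 3 dissociated libraries lie above the 3 controls for every gene shown but Ighv14-2; among the dissociated libraries Mag spreads from 47.7 to 360 CPM and Csf1r from 291 to 404 CPM.

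Other glial and vascular lists had no called member. Precursors of oligodendrocytes (OPC) had 10 tested members, 9 with a positive log2 fold change and a median of 1.21, and 0.99 without replicate 3. Olig1, a transcription factor of that lineage, had 161, 164 and 165 CPM in dissociated tissue, against 58.1, 61.4 and 47.0 CPM in controls (log2 fold change 1.55 ± 0.40, edgeR adjusted p = 0.139, and 1.54 without replicate 3). Astrocyte genes stood near the other genes, with a median of 0.16 over 17 members, 11 of them positive, and 0.49 without replicate 3. Slc1a2, the main glutamate transporter of astrocytes, had 1954, 916 and 1251 CPM in dissociated tissue, against 1744, 1246 and 1340 CPM in controls, and the groups overlapped. The astrocyte score relative to the controls was 0.63, 0.04 and -0.58 in dissociated replicates 1, 2 and 3. Endothelial genes had a median of 1.12 over 13 members with and without replicate 3, 12 of them positive, and in 6 the dissociated libraries all lay above the controls (7.16% of all genes). Eng, the TGF-beta co-receptor endoglin, had 31.5, 34.2 and 42.9 CPM in dissociated tissue, against 10.3, 14.7 and 11.2 CPM in controls, on 138, 5 and 13 counts in the dissociated libraries, and Flt1, a VEGF receptor, had 48.4, 68.4 and 62.7 CPM, against 46.1, 37.5 and 24.6 CPM. Pecam1, the 1 member with a negative value, had 8.68, 0 and 0 CPM in dissociated tissue, against 4.92, 8.44 and 5.37 CPM in controls. Of 8 blood leukocyte markers 2 passed the filter, and neither was called. Ptprc, the pan-leukocyte CD45, had 7.08, 27.4 and 0 CPM in dissociated tissue, against 3.58, 2.81 and 6.27 CPM in controls.

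3 genes of cytokine and NF-kappaB signalling rose in dissociated tissue. Of 22 listed genes 17 were tested, 15 had a positive log2 fold change, 3 were called higher (0.191% of all genes) and 0 lower, and in 12 the dissociated libraries all lay above the controls (7.16% of all genes). The median was 1.83 and likewise 1.83 without replicate 3, and 1.18 with dissociated replicate 1 alone. Il1a, the cytokine interleukin 1 alpha whose promoter is printed above (gene at chr2:129299610-129309972), had 80.6, 342 and 228 CPM in dissociated tissue, against 22.8, 26.1 and 35.4 CPM in controls (log2 fold change 2.87 ± 0.51, edgeR adjusted p = 0.0305, and 2.75 without replicate 3). Nfkbia, the inhibitor of NF-kappaB that the factor itself induces (chr12:55489410-55492647), had 65.8, 75.2 and 95.7 CPM in dissociated tissue, against 22.4, 20.6 and 15.2 CPM in controls (2.00 ± 0.40, edgeR adjusted p = 0.0455, and 1.83 without replicate 3). Socs3, a feedback inhibitor of cytokine receptors, had 58.9, 137 and 168 CPM in dissociated tissue, against 34.4, 24.6 and 21.0 CPM in controls (2.11 ± 0.43, edgeR adjusted p = 0.0474, and 1.69 without replicate 3).

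The other cytokines were not called, and several were low. Tnf had 17.6, 34.2 and 33.0 CPM in dissociated tissue, against 5.37, 6.07 and 4.48 CPM in controls (log2 fold change 2.29 ± 0.65, edgeR adjusted p = 0.198, and 2.08 without replicate 3). The dissociated values of Tnf rested on 77, 5 and 10 counts. Il1b had 25.8, 88.9 and 33.0 CPM in dissociated tissue, against 13.9, 6.81 and 7.61 CPM in controls, and the groups did not overlap. Ccl4 and Ccl3, chemokines of activated microglia, had log2 fold changes of 1.83 and 1.66, and 2.05 and 1.88 without replicate 3. Il6 was at 0 in all 3 dissociated libraries and Ccl2 in 2 of them, and both failed the filter on low counts.

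Of the 7 called genes outside these lists, Cd14, the lipopolysaccharide co-receptor, had 37.5, 192 and 106 CPM in dissociated tissue, against 18.3, 8.14 and 7.61 CPM in controls (log2 fold change 3.17 ± 0.58, edgeR adjusted p = 0.0332, and 3.12 without replicate 3). Cd83, a surface protein of activated antigen-presenting cells (chr13:43784775-43803132), had 153, 424 and 155 CPM in dissociated tissue, against 27.7, 45.5 and 58.2 CPM in controls (2.41 ± 0.45, edgeR adjusted p = 0.0372, and 2.63 without replicate 3). Plek, a protein kinase C substrate of blood-lineage cells, Slc15a3, a lysosomal peptide and histidine transporter, Pllp, a myelin membrane protein, and Tmem88b were called with log2 fold changes of 2.32, 3.27, 2.61 and 2.94, and 2.46, 3.17, 2.22 and 2.26 without replicate 3. In all 6 of these genes the groups did not overlap. Ighv14-2, an immunoglobulin heavy chain variable gene, had 56.6, 0 and 6.6 CPM in dissociated tissue, against 0, 0.148 and 0 CPM in controls. The groups overlapped, its call rested on dissociated replicate 1, and its counts may be shared with near-identical copies.

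No immediate early gene was called, although many had higher values in dissociated tissue. Immediate early genes are transcribed within minutes of neuronal activity or stress, without new protein synthesis. Of 37 tested members 29 had a positive log2 fold change, 17 had an unadjusted p under 0.05 (1464 of all 13063 genes did), and in 19 the dissociated libraries all lay above the controls (7.16% of all genes). The list's median was 0.87, and 0.80 without replicate 3. Jun, an AP-1 subunit (chr4:95049034-95052222), had 325, 479 and 743 CPM in dissociated tissue, against 175, 187 and 193 CPM in controls (log2 fold change 1.47 ± 0.32, edgeR adjusted p = 0.0693, and 1.09 without replicate 3). Atf3, a stress-induced repressor, had 79.2, 54.7 and 152 CPM in dissociated tissue, against 15.2, 19.7 and 34.9 CPM in controls (2.06 ± 0.50, edgeR adjusted p = 0.108, and 1.62 without replicate 3). Fos had 407, 554 and 419 CPM in dissociated tissue, against 252, 235 and 306 CPM in controls (0.79 ± 0.31, edgeR adjusted p = 0.352, and 0.84 without replicate 3). In each of these 3 genes the groups did not overlap.

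3 other members of this list, Npas4, Arc and Homer1, were chosen for description after their values were seen. Npas4, a transcription factor induced by synaptic activity, had 587, 109 and 29.7 CPM in dissociated replicates 1, 2 and 3, against 198, 351 and 503 CPM in controls. Arc, a cytoskeletal protein of active synapses, had 857, 287 and 195 CPM in dissociated tissue, against 501, 484 and 518 CPM in controls. In both, dissociated replicate 1 was the highest and the one labelled replicate 3 the lowest of the 6 libraries, and the groups overlapped. Homer1, a postsynaptic scaffold, had 162, 54.7 and 33.0 CPM in dissociated tissue, against 238, 192 and 309 CPM in controls (log2 fold change -1.39 ± 0.51, edgeR adjusted p = 0.307, and -1.02 without replicate 3), and every dissociated library lay below every control.

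Heat shock genes gave no call. Of 18 tested members 11 had a positive log2 fold change, with a median of 0.24 and 0.32 without replicate 3. Hspa8, the constitutive chaperone, had 1584, 1463 and 1706 CPM in dissociated tissue, against 1515, 1668 and 1703 CPM in controls. Hspa1a, an inducible one, had 189, 219 and 89.1 CPM in dissociated tissue, against 82.7, 86.8 and 140 CPM in controls, and the groups overlapped. Its near-identical copy Hspa1b had 256.7, 75.22 and 181.5 CPM in dissociated tissue, against 71.55, 122.3 and 169.7 CPM in controls. These groups overlapped as well, and counts may be shared between the copies. Cryab, a small chaperone which is also a member of the oligodendrocyte list, had the largest log2 fold change of the heat shock list at 2.60, and 1.89 without replicate 3.

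**Figure D3:**
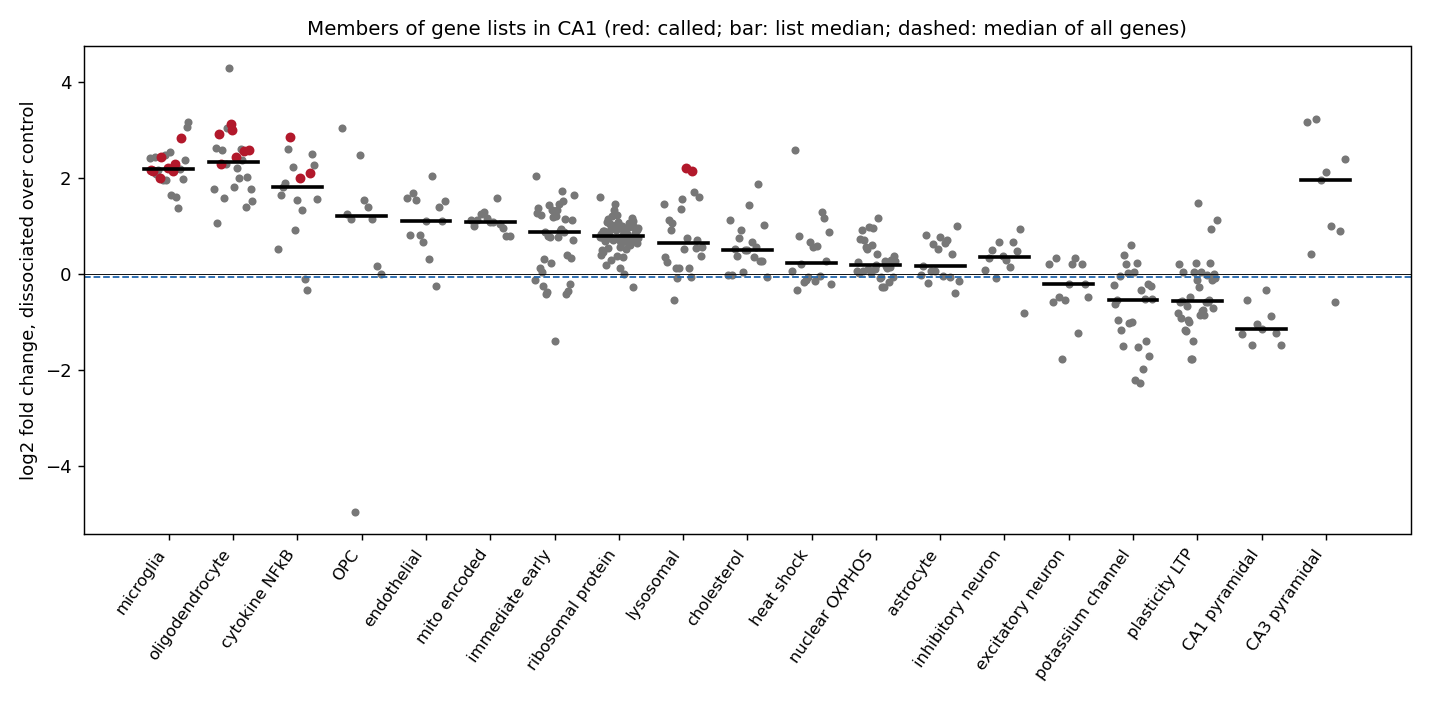
log2 fold change (dissociated over control) of every tested member of 19 gene lists, with called genes in red, list medians as bars and the median of all genes (-0.06) as a dashed line. The microglia and oligodendrocyte medians stand at 2.19 and 2.34, and those of potassium channel and plasticity genes at -0.53 and -0.56.

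Genes with negative log2 fold changes and small p-values included channels, receptors and signalling proteins of neurons, and none was called. Of the 8 genes with the smallest p among those with a negative log2 fold change and at least 20 CPM, the adjusted p ran from 0.0693 to 0.107. Grin2b, the GluN2B subunit of the NMDA receptor (chr6:135713233-136173511), had 720, 499 and 551 CPM in dissociated tissue, against 2404, 1502 and 2165 CPM in controls (log2 fold change -1.77 ± 0.41, edgeR adjusted p = 0.103, and -1.72 without replicate 3). Stxbp5l, a tomosyn that restrains vesicle fusion (chr16:37114942-37384962), had 44.1, 6.84 and 36.3 CPM in dissociated tissue, against 177, 109 and 134 CPM in controls (-2.00 ± 0.43, edgeR adjusted p = 0.0693). Its values in the dissociated libraries rested on 193, 1 and 11 counts. Kcnma1, the large-conductance calcium-activated potassium channel (chr14:23289431-24014491), had 63.3, 41.0 and 26.4 CPM in dissociated tissue, against 202, 161 and 199 CPM in controls (-1.98 ± 0.46, edgeR adjusted p = 0.0986).

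In all 8 genes, which also included Csrnp3, Rc3h2, Epha6 and Birc6, every dissociated library lay below every control, as did 16.0% of all genes tested. Because the 8 were picked by small p and sign in these same values, such separation is no further support. Epha6, an ephrin receptor, had 121, 61.6 and 56.1 CPM in dissociated tissue, against 344, 206 and 333 CPM in controls. Without the library labelled replicate 3 the log2 fold changes of the 8 ran from -2.00 (Stxbp5l) to -1.45 (Csrnp3), so they did not rest on that library.

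The lists of potassium channel and plasticity genes leaned the same way. A list of 20 mRNAs of the neuropil, the tissue of axons and dendrites, did not. Of these, 14 had a positive log2 fold change (6045 of all 13063 genes did), and the median was 0.21, and 0.26 without replicate 3. The neuropil score stood 0.55, -0.25 and -0.18 from the control mean in dissociated replicates 1, 2 and 3. Of 26 potassium channel genes 20 had a negative log2 fold change (7004 of all 13063 genes did), in 13 the dissociated libraries all lay below the controls (16.0% of all genes), and the median was -0.53, and -0.83 without replicate 3. Kcnj6, an inward rectifier coupled to G proteins, had 34.9, 13.7 and 0 CPM in dissociated tissue, against 142, 61.0 and 122 CPM in controls (log2 fold change -2.27 ± 0.61, edgeR adjusted p = 0.175, and -1.85 without replicate 3). Kcnab2, an auxiliary subunit, had 1880, 964 and 891 CPM in dissociated tissue, against 1333, 1098 and 1409 CPM in controls, and the groups overlapped. The channel list's score stood -0.60, -0.91 and -0.85 from the control mean in dissociated replicates 1, 2 and 3.

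Of 36 genes of synaptic plasticity 26 had a negative log2 fold change, beside 7004 of all 13063 genes. In 15 the dissociated libraries all lay below the controls, beside the same 16.0% of all genes. The median was -0.56 with and without replicate 3. Among the AMPA receptor subunits, Gria2 had 765, 527 and 584 CPM in dissociated tissue, against 1351, 1134 and 1192 CPM in controls (log2 fold change -0.96 ± 0.30, edgeR adjusted p = 0.241, and -0.91 without replicate 3). Camk2a, the postsynaptic kinase, had 6608, 3091 and 3811 CPM in dissociated tissue, against 4320, 3461 and 3908 CPM in controls, and the groups overlapped. Mapk3, an ERK kinase, had 78.3, 82.1 and 139 CPM in dissociated tissue, against 30.4, 46.9 and 27.3 CPM in controls (1.49 ± 0.38, edgeR adjusted p = 0.136, and 1.17 without replicate 3).

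Markers shared by excitatory neurons had a median of -0.20 over 13 genes and those of inhibitory neurons 0.35 over 12, and -0.37 and 0.36 without replicate 3. Slc17a7, the vesicular glutamate transporter of hippocampal pyramidal cells, had 1738, 1313 and 3171 CPM in dissociated tissue, against 1711, 1943 and 1744 CPM in controls. Gad1, which makes GABA, had 191, 178 and 208 CPM in dissociated tissue, against 105, 163 and 142 CPM in controls (log2 fold change 0.50 ± 0.31, edgeR adjusted p = 0.586, and 0.44 without replicate 3). The 9 tested CA1 markers all had a negative log2 fold change with a median of -1.14, and -0.73 with 2 of 9 positive without replicate 3. The 9 tested CA3 markers had a median of 1.97, and 0.57 without it.

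Counts of mitochondrially encoded genes made up 14.4%, 9.40% and 7.60% of the dissociated libraries, against 5.04%, 5.34% and 4.08% of the controls, without overlap. The mean difference was 5.65 percentage points (two-sided exact permutation test, p = 0.1, the smallest that 3 against 3 can give), and 7.09 without the library labelled replicate 3. All 13 mitochondrial protein genes had higher values in each dissociated library than in any control (7.16% of all genes did). Their median log2 fold change was 1.10, and 1.29 without replicate 3, and 0 were called. mt-Co1, the largest cytochrome oxidase subunit, had 41973, 23784 and 20374 CPM in dissociated tissue, against 14185, 14211 and 10942 CPM in controls (1.13 ± 0.32, edgeR adjusted p = 0.198, and 1.33 without replicate 3). Respiratory chain genes of the nucleus had a median log2 fold change of 0.19 over 31 members, 25 of them positive, and 0.22 without replicate 3.

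Ribosomal protein genes took 1.72%, 1.62% and 0.954% of the dissociated libraries, against 0.755%, 0.950% and 0.797% of the controls. The library labelled dissociated replicate 3 lay only just above the highest control (0.954% against 0.950%). Of 80 tested members 78 had a positive log2 fold change, beside 6045 of all 13063 genes. An unadjusted p under 0.05 (edgeR) was held by 45, beside 1464 of all 13063 genes, and 0 were called. Their median was 0.80, and 1.06 without replicate 3. Rplp1, an acidic stalk protein of the ribosome, had 685, 513 and 221 CPM in dissociated tissue, against 238, 263 and 206 CPM in controls. Many of these genes have near-identical pseudogenes, so the split of counts between copies is uncertain.

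Lysosomal genes had a median of 0.65 over 24 members, and 0.59 without replicate 3. Of the 24, 21 were positive, 2 were called higher (0.191% of all genes) and 0 lower. Laptm5, 1 of the called members, is also in the microglia list. Ctsd, the lysosomal protease cathepsin D of many cell types, had 443, 595 and 479 CPM in dissociated tissue, against 264, 226 and 197 CPM in controls (log2 fold change 1.13 ± 0.32, edgeR adjusted p = 0.197, and 1.16 without replicate 3). Genes of cholesterol synthesis and transport had a median of 0.51 over 19 members, and 0.10 without replicate 3, none called. Plau, the urokinase protease listed among matrix proteases, had 12.8, 192 and 52.8 CPM in dissociated tissue, against 6.71, 5.18 and 6.27 CPM in controls (3.54 ± 0.79, edgeR adjusted p = 0.0848, and 3.68 without replicate 3).

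**Figure D4:**
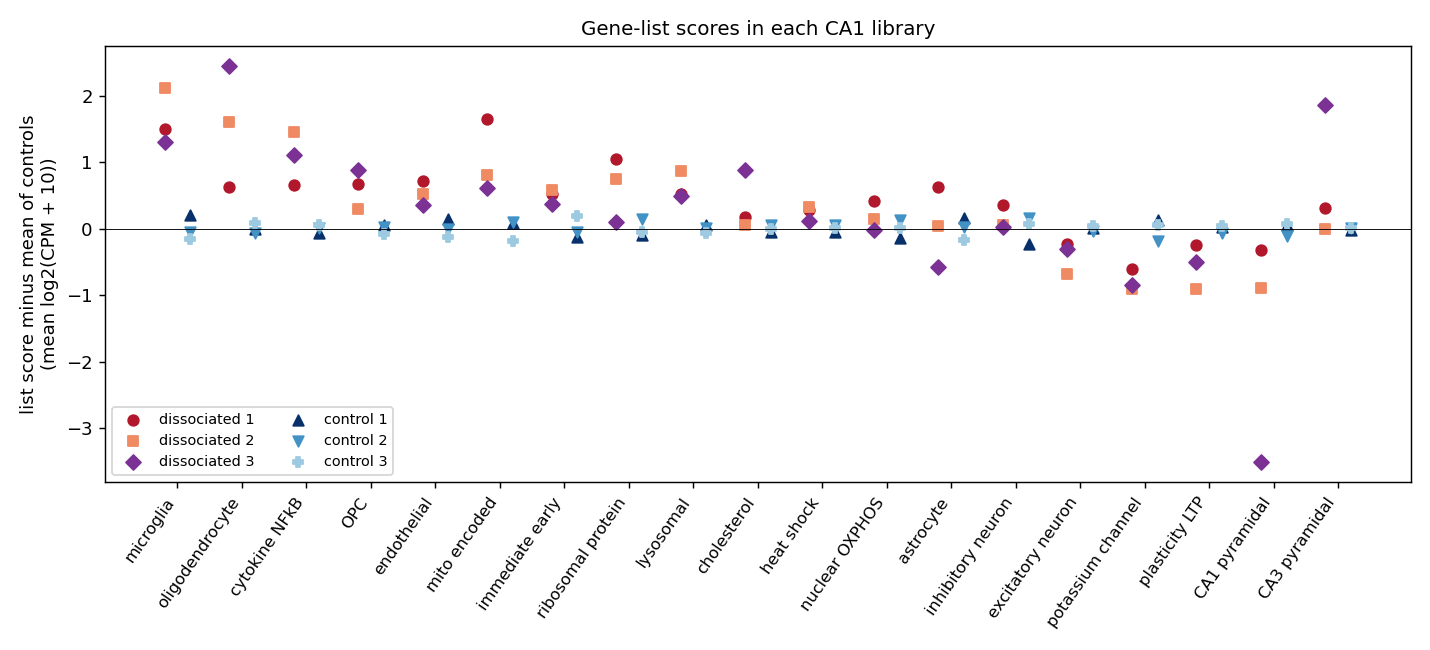
Score of each gene list, the mean log2(CPM + 10) of its tested members, in each CA1 library relative to the mean of the 3 controls, with dissociated libraries left of controls. Microglia scores stand at 1.50, 2.11 and 1.30 in dissociated libraries 1, 2 and 3 and oligodendrocyte scores at 0.62, 1.60 and 2.45, and the library labelled dissociated 3 stands apart for CA1 (-3.52) and CA3 (1.86) markers.

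Longer transcripts had lower log2 fold changes in CA1. Each gene's length was the mean annotated length of its transcripts, weighted by their TPM (transcript abundance scaled to a common total). The median log2 fold change was 0.45 over the 998 genes under 1 kb, 0.11 over 3337 genes of 1 to 2 kb, -0.25 over 2161 genes of 4 to 6 kb and -0.64 over 376 genes over 8 kb. Of the 376 longest, 108 had an unadjusted p under 0.05 with a negative and 8 with a positive log2 fold change. The 25 called genes had a median length of 1974 bases and the 8 named lower genes 6464 bases, beside 2668 bases for all genes tested.

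The trend was present in each dissociated library. Relative to the control mean, genes over 8 kb had median log2 ratios of (CPM + 10) of -0.60, -0.96 and -0.57 in dissociated replicates 1, 2 and 3. Each control library relative to the other 2 gave 0.13, -0.24 and 0.11 for the same genes. For genes under 1 kb the medians were 0.49, 0.50 and 0.21 in the dissociated libraries, against -0.14, 0.20 and -0.04 in the controls. Across 7417 genes of at least 20 CPM, Spearman's rho of length with the ratio was -0.49, -0.34 and -0.17 in the dissociated libraries, against 0.24, -0.41 and 0.16 in the controls. Control replicate 2 thus had a trend of the same sign, stronger by rho than that of dissociated replicates 2 and 3. Its median over 8 kb (-0.24) was smaller in size than that of each dissociated library. Under 1 kb its median (0.20) was close to that of dissociated replicate 3 (0.21). These correlations are across genes, which are not independent replicates. Over all 13063 genes rho was -0.26 for the CA1 fold change, -0.07 for CA3 and 0.16 for DG, and the difference between subregions was not tested. The CA1 value was -0.12 without dissociated replicate 1 and -0.32 without the library labelled replicate 3. Some called microglial genes, such as Selplg (1422 bases) and Ctss (1355 bases), are short. Others, Mpeg1 (4335 bases) and Csf1r (3943 bases), exceed the median of 2668 bases for all genes tested. The part of length in the gene lists was not tested.

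**Figure D5:**
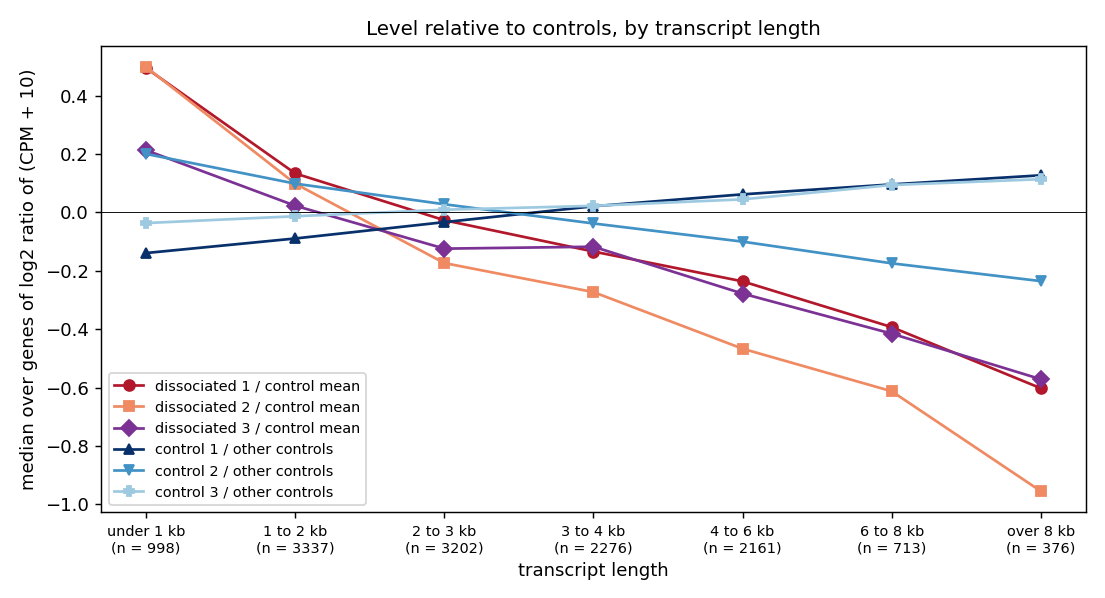
Median over genes of the log2 ratio of (CPM + 10) in classes of transcript length, for each dissociated library against the mean of the controls and each control against the other 2. Over 8 kb the dissociated libraries stand at -0.60, -0.96 and -0.57 and the controls at 0.13, -0.24 and 0.11.

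Whether dissociation acted otherwise on CA1 than on the other subregions was asked by testing the CA1 log2 fold change minus the mean of the CA3 and DG log2 fold changes. No gene was called (0 of 13063 by edgeR and 0 by DESeq2), while 1186 (9.08%) had an unadjusted p under 0.05. The same count of 0 was obtained without the library labelled CA1 dissociated replicate 3. The 4 genes with the smallest p were Rps12-ps3, Gm20683, Dbnl and Usmg5, each with an adjusted p of 0.408 (edgeR), and their CA1 log2 fold changes were 0.77, 0.98, 0.04 and 0.82. Their DG values were -11.2, -9.70, -10.5 and -3.41, and their CA3 values 0.54, -0.21, -0.34 and -0.17. DG dissociated replicates 3 and 4 held 65887 and 598775 counts. Rps12-ps3 is a pseudogene of a ribosomal protein gene, so its counts are uncertain.

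The genes called in CA1 had values of the same direction in CA3 with 1 exception. Selplg had a log2 fold change of 2.84 ± 0.43 in CA1, beside 1.26 ± 0.49 in CA3 and 1.25 ± 0.62 in DG (difference 1.59 ± 0.57, edgeR adjusted p = 0.473). Trf had 2.58 ± 0.39 in CA1, beside 2.02 ± 0.46 in CA3 and 0.98 ± 0.47 in DG (difference 1.08 ± 0.49, edgeR adjusted p = 0.542). Cd83 had 2.41 ± 0.45 in CA1, beside 1.43 ± 0.52 in CA3 and -0.84 ± 0.66 in DG (difference 2.11 ± 0.61, edgeR adjusted p = 0.427). The exception was Ighv14-2, at -3.19 ± 2.70 in CA3. In DG, 5 of the 25 (Cd14, Cd83, Laptm5, Slc15a3 and Pllp) had a negative value. The DG values rest on dissociated replicates 3 and 4, where a gene without a count may still have reached 46.8 and 4.96 CPM. The medians of the microglia list were 2.19 in CA1, 1.51 in CA3 and 1.07 in DG, and those of the oligodendrocyte list 2.34, 1.73 and 0.90. The differences between these medians were not tested. The CA3 control tissue also held CA1 marker RNA, with a mean of 550 CPM of Fibcd1 beside 541 CPM in CA1 controls.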

How the data were processed

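Per the submitters' processing notes, FastQC, cutadapt, kallisto and DESeq2 were used, and the sources used here give no version, genome build or strand. The gene table deposited by the authors holds estimated counts, equal to the kallisto transcript estimates summed by symbol and rounded (largest difference 0.500) for 22485 genes. The deposited transcript tables of 58716 transcripts give TPM, scaled by kallisto for effective length, per the file headers. Reads of near-identical copies can be split between them. The authors' sample table lists 1 mouse, 1 sequencing job and 1 date, so no batch could be separated.

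Counts were tested with edgeR 4.0.16 (R 4.3.3; quasi-likelihood) over all 14 libraries with 1 mean per group of subregion and treatment, TMM scaling and filterByExpr (minimum count 10, minimum total 15), and the contrast was dissociated minus control CA1. A gene was called where its p, adjusted by Benjamini and Hochberg over 13063 genes, was under 0.05. CPM are counts scaled to a common total with TMM library sizes. List scores used a pseudocount of 10 CPM, in place of plain log2 CPM as first planned, because of the shallow libraries. The method was tested on simulated data.

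Named genes were the 20 called higher with the smallest p and at least 5 CPM on average, with the other 5 called added after their values were seen, the 8 with the smallest p among negative log2 fold changes of at least 20 CPM, the 4 with the smallest p in the test between subregions, subregion markers, and called or first-listed members of 29 gene lists. Other list members named were chosen after their values were seen. The members and lists were chosen with earlier results of these data known. Coordinates are GENCODE M21 (GRCm38), found for 214 of 214 named gene identifiers. The alternatives, 16 in number, are another scaling (RLE, upper quartile), filters, tools (DESeq2 1.42.0, limma 3.58.1 on log2(TPM + 1)), libraries left out, a replicate block and thinning to 135065 counts. Replicate numbers are not known to pair the libraries. Deviations from the group means of same-numbered libraries correlated at -0.02, 0.05 and 0.02. Those of unlike-numbered libraries correlated at -0.05 to 0.05. Given the shallow dissociated libraries, such values cannot decide whether the tissue was paired. Values of some genes that the naming rule takes are not reported here.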

Additional observations from a re-analysis of the deposited data

How the results depend on the processing

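The count of genes called higher (25) and lower (0) depended on the fit. Higher and lower calls were 45 and 18 with the CA1 libraries alone, 29 and 7 after thinning to the shallowest library, 178 and 28 with DESeq2, 198 and 73 with no filter on low counts, 31 and 0 with RLE scaling, 30 and 0 with upper-quartile scaling and 22 and 0 with a stricter filter. limma on log2(TPM + 1) called 0 and 0, with 189 higher and 1854 lower at an unadjusted p under 0.05, and moved the median of all genes to -0.59, so that all its fold changes are read relative to that shift. Leaving out 1 library gave 0 to 70 higher and 0 to 41 lower calls: 10 higher without control replicate 1, 0 without control replicate 2, control replicate 3 or dissociated replicate 2, 1 without dissociated replicate 3, and 70 higher with 41 lower without dissociated replicate 1, where the median of all genes was -0.22. At an unadjusted p under 0.05 the fits with no call still held 584 higher and 535 lower genes without control replicate 2, 510 and 363 without control replicate 3, and 699 and 452 without dissociated replicate 2. With both libraries under 500000 counts left out, 1 gene (Ighv14-2) was called, and the lone dissociated library is assumed to vary like the other groups. The cause of these shifts was not tested.

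The test of CA1 against CA3 and DG called 0 genes, also without each CA1 library in turn, but 67 with no filter, 2 with limma on log2(TPM + 1) and 2 without the libraries under 500000 counts. With the replicate block within regions, 145 genes were called higher and 154 lower, and the test between subregions called 12. The numbers are not known to pair the libraries. The correlations of same-numbered libraries (-0.02, 0.05 and 0.02) were all under 0.1 and cannot decide it, given the shallow dissociated libraries.

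The difference in mitochondrial share ran from 3.68 to 7.09 percentage points with 1 library left out and was 10.4 as a share of TPM, and the log2 difference in depth ran from -4.02 to -1.45. No named log2 fold change that was called changed sign. Spearman's rho of transcript length with the CA1 fold change (-0.26), a comparison across settings added after the data were seen, was -0.49 over the 3099 genes left after thinning, -0.40 with a stricter filter, -0.12 with limma on log2(TPM + 1), and -0.32 to -0.12 with 1 library left out. Depth limits genes under 20.5 CPM in dissociated replicate 2 and under 9.9 CPM in replicate 3.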
